A study of Homo sapiens with 10 samples.

Results

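Making a ribosome takes a large set of proteins that never become part of it, and 45 genes for such proteins were followed here, together with the transcription factor gene MYC, in 2 human pancreatic ductal adenocarcinoma lines, CFPAC-1 and PANC-1. The genes were chosen by name for what their products do, with no threshold on their values but with earlier results of these data known. The further gene lists used below were chosen with the same knowledge. All 46 genes were found among the 20289 genes of the deposited expression table. By role the 46 are 5 genes of RNA polymerase I transcription, 7 of the box C/D and box H/ACA snoRNA-protein complexes, 14 of small subunit assembly, 13 of large subunit assembly, 6 for abundant or regulatory nucleolar proteins, and MYC.

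The groups were PANC-1 with 1 µM imidazole ketone erastin for 24 h (4 libraries), PANC-1 with 0.1% DMSO (2 libraries), CFPAC-1 with 10 µM imidazole ketone erastin for 24 h (2 libraries) and CFPAC-1 with 0.1% DMSO (2 libraries). Imidazole ketone erastin (IKE) blocks system xc-, the carrier that exchanges glutamate for cystine, and is used to bring on ferroptosis. The labels name no genetic change in either line, and each line received 1 dose, so that line and dose cannot be told apart in the response. Surviving cells were collected, so a change within cells and a change in which cells survived cannot be told apart either. In such bulk RNA, fewer cells of a kind and less RNA per cell give the same value.

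Ribosome synthesis begins in the nucleolus, where RNA polymerase I copies the rDNA into a long precursor. Small nucleolar RNA-protein complexes modify that precursor, while the small subunit processome and a separate series of large subunit factors fold, cut and assemble it with ribosomal proteins. MYC, paired with MAX, binds the E-box CACGTG and is known as an activator of this programme in growing and cancerous cells, and the MXD proteins, MXI1 and MNT compete with it for MAX. The libraries were depleted of rRNA, so what follows concerns the mRNAs of the factors and not the amount of pre-rRNA they process.

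Levels are given as FPKM, a fragment count set against the length of the transcript and the size of the library, with a summed value of 405937 to 472665 per library and an unknown read depth. The members made up 0.556% to 0.633% of summed FPKM in the PANC-1 libraries and 0.341% to 0.357% in the CFPAC-1 libraries. Changes are log2 fold changes of FPKM + 1, a scale that understates changes of low genes, tested with limma over 13077 genes, all 46 members among them. A gene is called where its p, adjusted over all tested genes, is under 0.05. It is not stated that the replicates came from separate cultures, and the p-values reflect no more than the scatter of these libraries. The markers of epithelial carcinoma KRT8, KRT18 and KRT19 lay at 721 FPKM or more in every library, and EPCAM at 8.58 to 11.1 FPKM in PANC-1 and 152 to 158 FPKM in CFPAC-1. The epithelial cadherin gene CDH1 was also lower in PANC-1, at 12.8 to 15.7 FPKM against 88.8 to 95.4 FPKM in CFPAC-1. The mesenchymal markers were mixed. VIM lay at 1910 to 2083 FPKM in PANC-1 and at 529 to 607 FPKM in CFPAC-1, and ZEB1 at 10.6 to 13.4 and 6.49 to 9.25 FPKM. CDH2 ran the other way, at 14.1 to 16.9 FPKM in PANC-1 and 37.0 to 41.5 FPKM in CFPAC-1. Of 14 genes for other cell types, PTPRC, CD3E, VWF, CPA1, PRSS1, ALB, INS, GCG and HBB stayed at 0.18 FPKM or less in all 10 libraries, while CD14 and PECAM1 reached 14.7 and 21.3 FPKM in CFPAC-1 and COL1A1 reached 24.9 FPKM in PANC-1. The duct marker CFTR was at 0.11 FPKM or less in PANC-1 and at 0.59 to 0.93 FPKM in CFPAC-1. The part of these line markers in the results below was not tested.

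**Figure D1:**
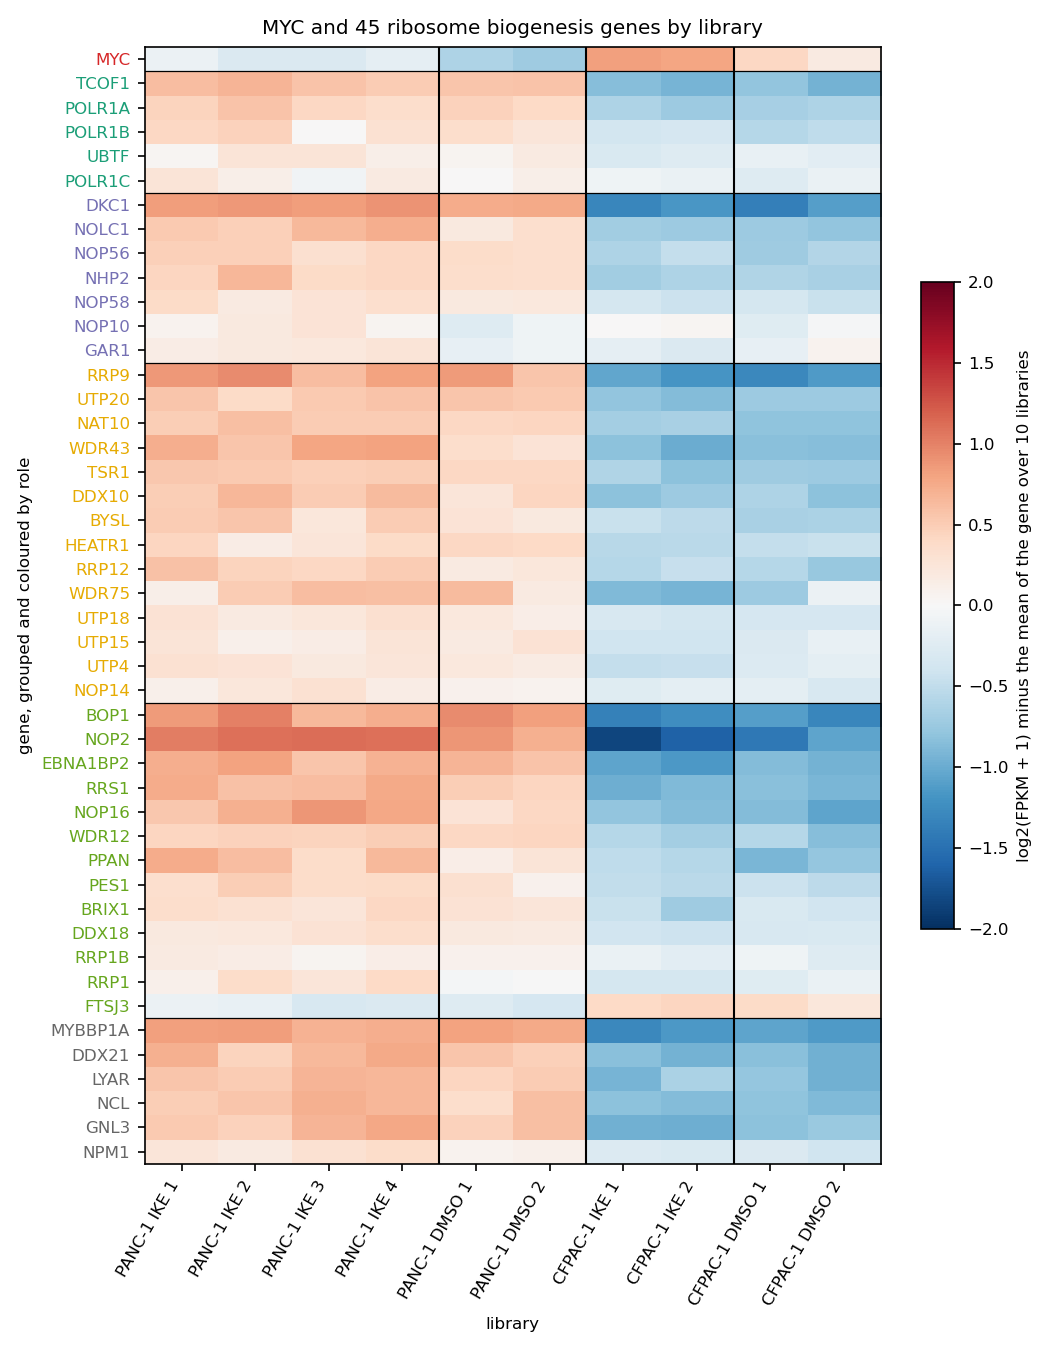
All 46 members, grouped by role, in the 10 libraries. Colour gives log2(FPKM + 1) minus the gene's mean over the 10 libraries. Values are higher in the PANC-1 libraries than in the CFPAC-1 libraries for most members, and MYC and FTSJ3 run the other way.

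The first comparison set PANC-1 against CFPAC-1 with DMSO alone, and it separated nearly the whole module. Of the 46 members 41 were higher in PANC-1, 2 were lower and 3 were not called. Across all tested genes 43.4% were called higher in PANC-1 and 35.2% lower, 78.7% in all, so the lines differed widely, and the share of members called higher lay above that background. The members' median log2 difference was 0.99, against 0.12 over all tested genes, and 23 members were more than 1 higher on the log2 scale. The difference was above 0 for 42 members, against 54.8% of all tested genes. All PANC-1 DMSO values lay above all CFPAC-1 DMSO values for 42 members, against 49% of all tested genes, and below them for 2 members, against 40.3%. The difference is that of these 2 lines only. With another scaling of the libraries (the median ratio), the median of all genes shifted to -0.00 and that of the members to 0.86, with 37 members higher and 2 lower.

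MYC itself was lower in PANC-1 (ENSG00000136997, chromosome 8, 127735434 to 127741434, GRCh38, GENCODE 29). It lay at 19.1 and 17.8 FPKM in PANC-1 with DMSO, against 39.8 and 33.7 FPKM in CFPAC-1 with DMSO. Both PANC-1 values were below both CFPAC-1 values (log2 difference -0.95, SE 0.09, adjusted p = 1.87e-06, limma). Ordered by mean level among the 46 members, MYC was 34th in PANC-1 and 7th in CFPAC-1. MYC and most of its fellow members thus stood in opposite order between the lines.

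The counts by role that follow stand beside 43.4% of all tested genes called higher in PANC-1 and 35.2% lower. The RNA polymerase I genes were all called higher in PANC-1, 5 of 5, with a median difference of 0.85. These genes are POLR1A and POLR1B, the catalytic core subunits, POLR1C, a subunit shared with RNA polymerase III, UBTF, which opens the rDNA promoter, and TCOF1, the treacle protein of the nucleolus. TCOF1 differed most of them, with 24.6 and 24.9 FPKM in PANC-1 and 9.1 and 8.0 FPKM in CFPAC-1 (1.43, adjusted p = 3.37e-08, limma), followed by POLR1A (1.07) and POLR1B (0.85). UBTF (0.30, adjusted p = 0.00891) and POLR1C (0.25, adjusted p = 0.0406) differed least. Both lost their calls under either other scaling, with an adjusted p of 0.0511 and 0.0988 for UBTF and 0.143 and 0.267 for POLR1C, and when single DMSO libraries were left out.

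Among the snoRNA-protein genes 5 of 7 were called higher in PANC-1, and the H/ACA complex was split. DKC1, the pseudouridine synthase of the complex (ENSG00000130826, chromosome X, 154762742 to 154777689), lay at 117 and 119 FPKM in PANC-1, against 26.4 and 32.2 FPKM in CFPAC-1. Its mean was 4.04-fold higher in PANC-1 (log2 difference 1.98, SE 0.09, adjusted p = 1.81e-09, limma), with no overlap between the lines. NHP2, a core protein of the same complex, was higher by 0.97. The complex's other core proteins were not called: GAR1 lay at 10.8 and 11.5 FPKM in PANC-1 against 10.7 and 12.9 FPKM in CFPAC-1 (-0.07, SE 0.10, adjusted p = 0.521), and NOP10 at 57.7 and 65.3 FPKM against 58.5 and 68.6 FPKM (-0.04, SE 0.10, adjusted p = 0.688), in both cases with overlapping libraries. Of the C/D complex, the scaffold genes NOP56 (1.00) and NOP58 (0.60) were both higher, as was NOLC1, a chaperone of snoRNA-protein complexes (1.03).

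All 14 small subunit members were called higher in PANC-1, with differences of 0.34 to 1.91. RRP9, a protein of the U3 snoRNA complex, lay at 26.1 and 21.2 FPKM in PANC-1 against 5.17 and 5.86 FPKM in CFPAC-1 (1.91, adjusted p = 6.67e-08, limma). The 90S scaffold gene UTP20 (1.27), the RNA acetyltransferase gene NAT10 (1.23), WDR43 (1.16) and TSR1 (1.13) followed, and UTP4 (0.43), UTP15 (0.45) and NOP14 (0.34) were at the low end. NOP14 lost its call with median-ratio scaling (adjusted p = 0.0532) and without CFPAC-1 DMSO replicate 2 (adjusted p = 0.0522). WDR75 had the widest spread of the group, with 41.3 and 29.9 FPKM in PANC-1 and 15.5 and 24.2 FPKM in CFPAC-1 (0.83, adjusted p = 0.00369), and without CFPAC-1 DMSO replicate 1 its difference was 0.52 (adjusted p = 0.0517).

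Large subunit genes ranged from -0.60 to 2.09. Of 13, 11 were higher in PANC-1, FTSJ3 was lower and RRP1 was not called. BOP1, of the PeBoW complex that processes the large subunit precursor, lay at 37.3 and 34.2 FPKM in PANC-1, against 8.24 and 7.01 FPKM in CFPAC-1 (2.09, adjusted p = 1.51e-08, limma), while its partners WDR12 and PES1 were higher by 1.13 and 0.67. NOP2, an rRNA methyltransferase gene, differed by 2.04. EBNA1BP2, an early large subunit assembly factor (ENSG00000117395, chromosome 1, 43164175 to 43270936), lay at 68.8 and 63.9 FPKM in PANC-1, against 23.0 and 21.7 FPKM in CFPAC-1 (log2 difference 1.53, SE 0.08, adjusted p = 1.32e-08). FTSJ3, another rRNA methyltransferase gene (ENSG00000108592, chromosome 17, 63819433 to 63830012), lay at 17.8 and 16.8 FPKM in PANC-1, against 28.2 and 25.3 FPKM in CFPAC-1, with no overlap (log2 difference -0.60, SE 0.09, adjusted p = 9.20e-05). It was the only member besides MYC with a lower call in PANC-1. RRP1 (0.16, adjusted p = 0.164) lay at 15.1 and 15.5 FPKM in PANC-1 and at 13.0 and 14.1 FPKM in CFPAC-1, and its paralogue RRP1B (0.26, adjusted p = 0.0162) lost its call under both other scalings and when CFPAC-1 DMSO replicate 2 or either DMSO library of PANC-1 was left out, at an adjusted p of 0.0542 to 0.163.

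The 6 nucleolar proteins were all higher in PANC-1, with the highest median of the role groups, 1.33. MYBBP1A, a MYB-binding nucleolar protein that also acts in rDNA transcription (ENSG00000132382, chromosome 17, 4538897 to 4555631), lay at 23.6 and 22.8 FPKM in PANC-1, against 5.77 and 5.40 FPKM in CFPAC-1 (log2 difference 1.88, SE 0.09, adjusted p = 3.07e-09, limma). NPM1, nucleophosmin, was the member with the highest FPKM in each line and differed least in this group, with 669 and 684 FPKM in PANC-1 and 516 and 479 FPKM in CFPAC-1 (0.44, adjusted p = 2.11e-04). The helicase gene DDX21 (1.41), the nucleolin gene NCL (1.32), the nucleostemin gene GNL3 (1.31) and LYAR (1.34) lay together between them. Of the genes given in full, EBNA1BP2, FTSJ3 and MYBBP1A overlap exons of CFAP57, PSMC5 and SPNS2 on the other strand, so their values are uncertain if counting ignored strand.

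**Figure D2:**
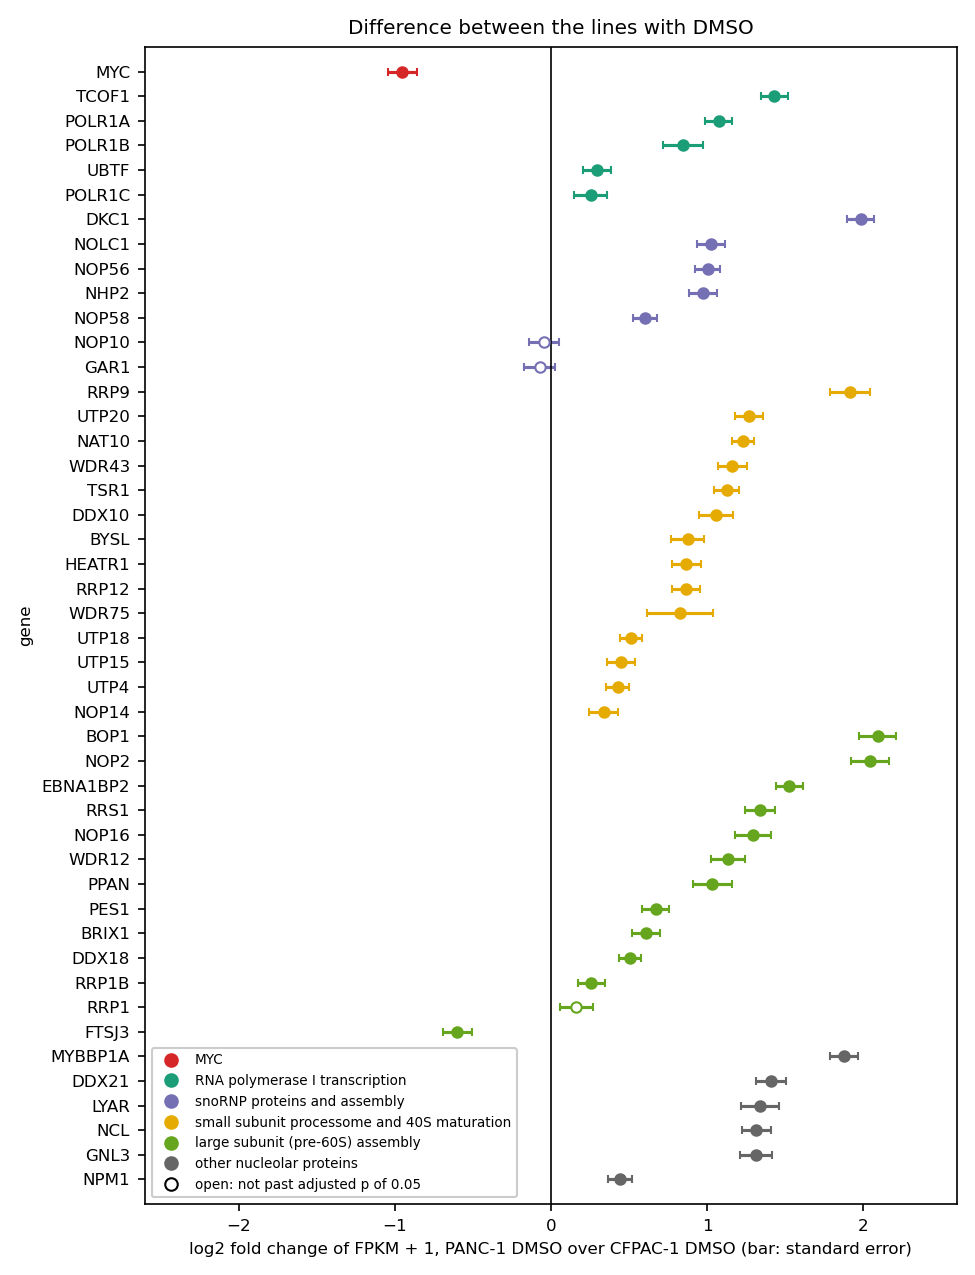
Log2 difference of FPKM + 1, PANC-1 with DMSO minus CFPAC-1 with DMSO, for each member, with its limma standard error. MYC (-0.95) and FTSJ3 (-0.60) are the members called lower, and GAR1, NOP10 and RRP1 sit near 0.

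Promoter sequences are shown for members whose lines differed most surely and for WDR43, because the E-box that MYC and MAX bind is read from them. RefSeq promoter windows on GRCh38.p14, running from 250 bases before to 50 after a gene's start, matched 37 of the 46 members. The E-box was searched as CACGTG, which reads the same on both strands, and capitals mark each match. WDR43 (chr2:28894417-28894716, plus strand) has it at bases 254 to 259 of the window, MYBBP1A (chr17:4555335-4555634, minus strand) at 278 to 283, and EBNA1BP2 (chr1:43172241-43172540, minus strand, 1 of 2 windows) at 293 to 298. DKC1 (chrX:154762614-154762913, plus strand) and FTSJ3 (chr17:63827614-63827913, minus strand) hold none in these windows.
WDR43: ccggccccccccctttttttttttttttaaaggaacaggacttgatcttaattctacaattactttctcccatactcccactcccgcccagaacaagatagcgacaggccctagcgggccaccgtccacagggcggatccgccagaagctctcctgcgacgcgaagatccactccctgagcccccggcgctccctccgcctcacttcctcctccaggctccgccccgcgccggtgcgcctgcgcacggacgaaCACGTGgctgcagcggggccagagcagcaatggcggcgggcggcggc
MYBBP1A: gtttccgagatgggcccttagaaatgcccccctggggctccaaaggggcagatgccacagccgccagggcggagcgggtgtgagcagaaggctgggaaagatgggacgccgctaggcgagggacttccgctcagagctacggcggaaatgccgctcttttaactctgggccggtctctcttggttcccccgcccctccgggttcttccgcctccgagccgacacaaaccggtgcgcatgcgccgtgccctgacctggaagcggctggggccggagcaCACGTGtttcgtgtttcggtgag
EBNA1BP2: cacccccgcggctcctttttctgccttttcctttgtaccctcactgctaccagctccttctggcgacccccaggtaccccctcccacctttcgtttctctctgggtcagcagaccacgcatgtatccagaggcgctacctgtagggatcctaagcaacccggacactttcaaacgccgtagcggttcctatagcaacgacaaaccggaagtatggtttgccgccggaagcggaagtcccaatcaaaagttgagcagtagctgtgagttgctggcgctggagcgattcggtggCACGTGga
DKC1: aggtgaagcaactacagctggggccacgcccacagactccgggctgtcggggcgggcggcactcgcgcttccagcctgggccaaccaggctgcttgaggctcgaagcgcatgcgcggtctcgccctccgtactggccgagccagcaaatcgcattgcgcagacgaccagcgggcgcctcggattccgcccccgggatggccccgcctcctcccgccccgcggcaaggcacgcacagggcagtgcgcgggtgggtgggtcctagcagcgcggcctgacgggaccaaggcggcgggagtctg
FTSJ3: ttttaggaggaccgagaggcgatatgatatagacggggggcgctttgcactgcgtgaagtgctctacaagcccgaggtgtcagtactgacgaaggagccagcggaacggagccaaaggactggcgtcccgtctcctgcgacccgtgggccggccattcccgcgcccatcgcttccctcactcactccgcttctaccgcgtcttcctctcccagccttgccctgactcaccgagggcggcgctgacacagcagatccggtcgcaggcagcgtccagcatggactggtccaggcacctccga

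Of the matched members, 17 of 37 had CACGTG in at least 1 window, 45.9%, against 1309 of 10474 tested genes with a window, 12.5%. Counted by window, the share was 39.1% for the members, 9.19% for tested genes and 7.26% for all promoters in the table. NOP10 and UTP18 carried it at 2 places. A match is a string of letters in a window and no evidence of binding. The members with the E-box had a median line difference of 1.23 (n = 17) and those without it 0.92 (n = 20), and both sets ranged widely, from -0.07 to 2.04 with the E-box and from -0.60 to 1.98 without it. A gene structure that the choice did not use was more frequent among members than among tested genes, though most members lack it. Of the 46 members 8, or 17.4%, carry annotated snoRNA genes inside them, 27 in all, against 216 of 13039 tested genes, or 1.66%. These hosts are DKC1, GNL3, NCL, NOP56, NOP58, PPAN, TSR1 and WDR43. The loci of the 46 members were spread over 18 chromosomes, with 8 members on chromosome 2, 6 on chromosome 5 and 5 on chromosome 17.

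The second comparison asked what changed in PANC-1 cells that survived IKE. MYC rose and WDR43 rose, 0 members fell and 44 were not called, against 1.21% of tested genes called higher, 1.17% called lower and 2.38% called in either direction. The count of calls is small, but the values leaned one way. The fold change was above 0 for 40 of 46 members, against 47.9% of all tested genes, with a median of 0.10 against -0.01. All 4 IKE values lay above both DMSO values for 19 members and below them for 0, against 12.3% and 13.6% of all tested genes. At an unadjusted p under 0.05, 15 members were higher and 0 lower, against 8.37% and 9.25% of all tested genes. All members were measured against the same 2 DMSO libraries, so their directions are not separate observations. By library, the members' median log2(FPKM + 1) was 5.05, 5.04, 4.95 and 5.02 with IKE and 4.96 and 4.92 with DMSO, so these medians overlapped.

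MYC lay at 27.3, 24.3, 24.1 and 26.2 FPKM in PANC-1 with IKE, against 19.1 and 17.8 FPKM with DMSO. Each treated library was above each control library (0.44 on the log2 scale, SE 0.08, adjusted p = 0.0189, limma), with a 1.38-fold higher mean. The call was lost without PANC-1 DMSO replicate 1 (adjusted p = 0.126) or replicate 2 (0.141), which leaves 1 library in that arm, and also in a fit of PANC-1 alone (0.0784) and with IKE replicates 1 and 2 only (0.0592).

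WDR43, a component of the small subunit processome (ENSG00000163811, chromosome 2, 28894643 to 28948222), lay at 66.3, 59.2, 69.8 and 70.6 FPKM in PANC-1 with IKE, against 50.9 and 48.4 FPKM with DMSO. The groups did not overlap (log2 fold change 0.41, SE 0.08, adjusted p = 0.0238, limma). Its promoter is the first of those printed above. The call stood close to the threshold. It was lost without IKE replicate 1 (adjusted p = 0.0515, limma) or 4 (0.0589) and with no low-value filter (0.0515). It was also lost in a fit of PANC-1 alone (0.102) and with IKE replicates 1 and 2 only (0.109). Without PANC-1 DMSO replicate 1 or 2, which leaves 1 library in that arm, it was lost at fold changes of 0.45 and 0.38. With IKE replicates 3 and 4 only, 4 members were called, but so were 469 of all 13077 tested genes, against 311 with all libraries. With IKE replicates 1 and 2 only, 0 members and 170 of all tested genes were called.

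Named after their values were seen, 6 members lay just outside the threshold in PANC-1. NOLC1 had 62.7, 60.5, 67.8 and 72.2 FPKM with IKE against 49.7 and 54.9 FPKM with DMSO (0.32, adjusted p = 0.0524, limma). NOP16, of large subunit assembly, had 23.2, 26.3, 29.8 and 27.6 FPKM with IKE against 19.1 and 21.2 FPKM with DMSO (0.39, adjusted p = 0.0728). In both genes every treated library was above every control library. NOLC1 was called with a filter of at least 5 FPKM (adjusted p = 0.0408, limma), without IKE replicate 2 (0.0254) and with IKE replicates 3 and 4 only (0.0213). NOP16 was called without IKE replicate 1 (0.0453) and with IKE replicates 3 and 4 only (0.0333). Neither gene was called in any other fit run. With 1 library left out, the fold change ran from 0.25 to 0.39 for NOLC1 and from 0.31 to 0.46 for NOP16. The others were NOP10 (0.32, adjusted p = 0.0744), GAR1 (0.32, adjusted p = 0.0808), the large subunit factor gene PPAN (0.40, adjusted p = 0.0818, and called without IKE replicate 3 at 0.0295) and RRP12, which acts in the export of subunits (0.29, adjusted p = 0.0845), again without overlap. PPAN shares exons with the readthrough gene PPAN-P2RY11, so its value is uncertain.

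By role, the snoRNA-protein genes were above 0 in 7 of 7 members (0.07 to 0.32) and without overlap in 5, of which GAR1, NOP10 and NOLC1 had the largest values. Of all tested genes 47.9% were above 0 and 12.3% lay all higher. The small subunit genes were above 0 in 11 of 14 (-0.10 to 0.41) and the large subunit genes in 12 of 13 (-0.08 to 0.40), each with 6 members all higher. Nucleolar genes were above 0 in 5 of 6 (-0.01 to 0.18), where NPM1 had 749, 714, 782 and 819 FPKM with IKE and 669 and 684 FPKM with DMSO (0.18, adjusted p = 0.191, limma). RNA polymerase I genes had the narrowest range, from -0.00 to 0.06, and all 5 overlapped between treated and control libraries. HEATR1, needed for rDNA transcription and early processing, had the lowest value of all members, -0.10, with 37.0, 30.4, 32.3 and 35.6 FPKM with IKE and 36.4 and 36.2 FPKM with DMSO.

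**Figure D3:**
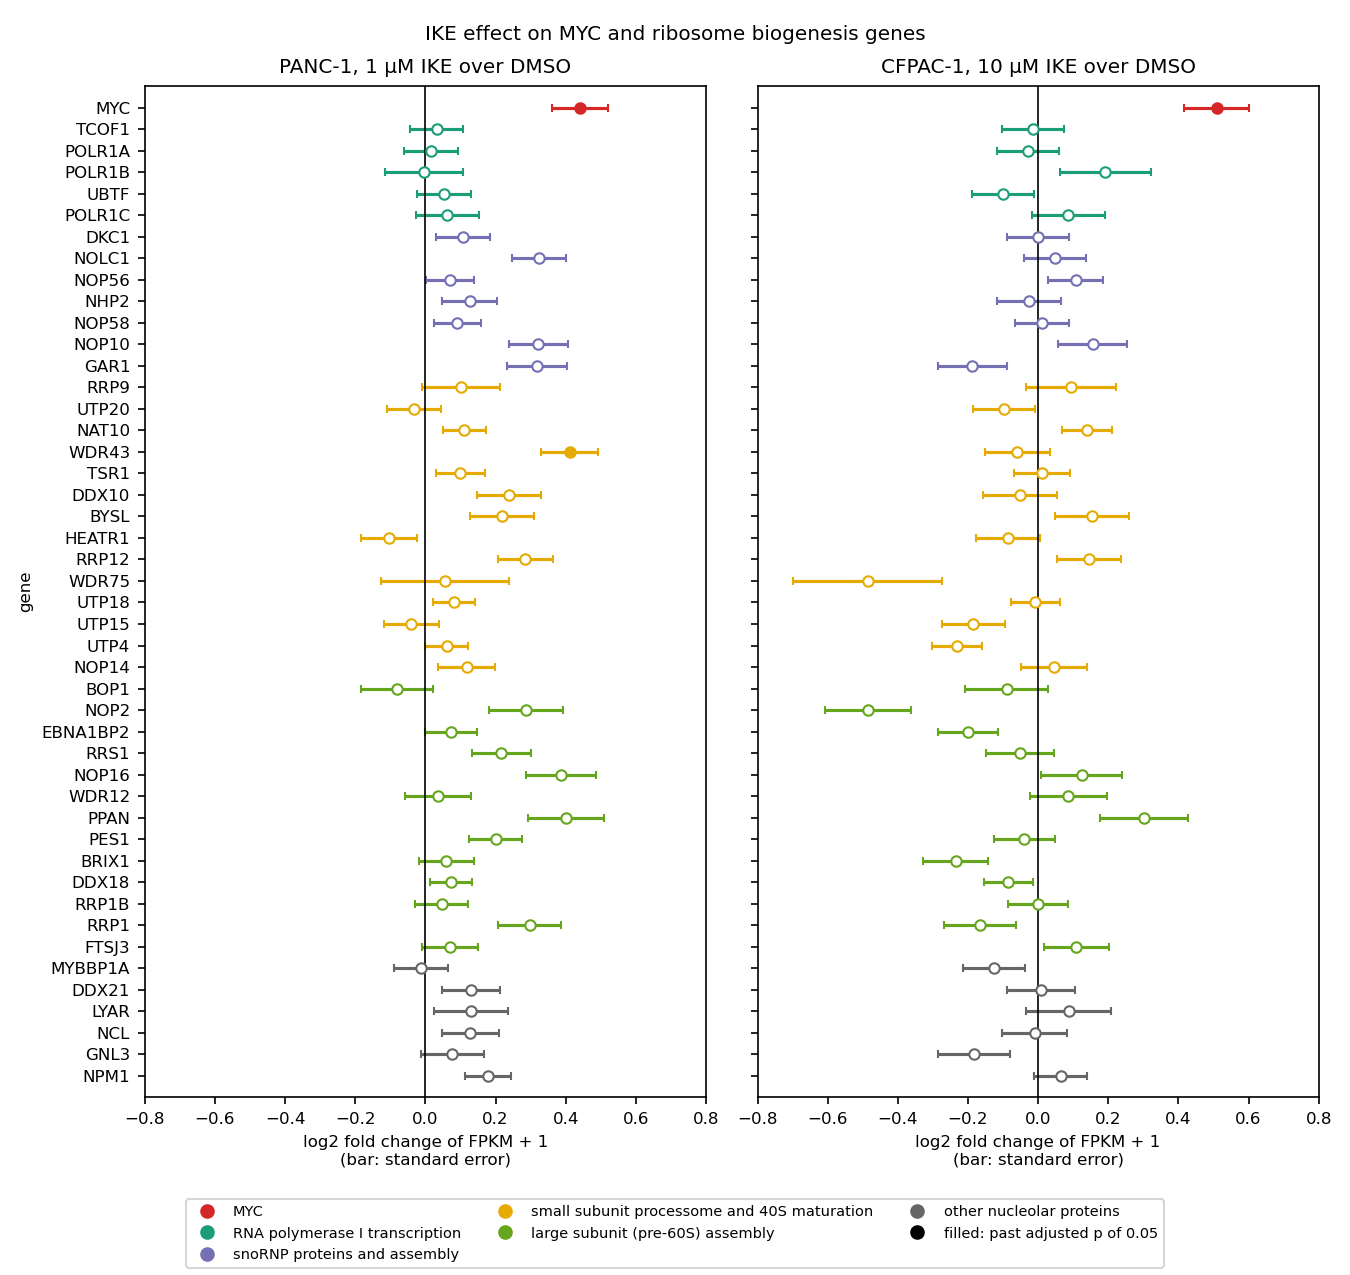
Log2 fold change of FPKM + 1 with IKE against DMSO for each member, in PANC-1 and in CFPAC-1, with the limma standard error. In PANC-1 40 of 46 values are above 0 and in CFPAC-1 22 of 46, and MYC is high in both lines.

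CFPAC-1 survivors of 10 µM IKE gave the third comparison. MYC rose, 0 members fell and 45 were not called, against 0.864% of tested genes called higher, 0.459% lower and 1.32% in either direction. The other members lay around 0. Their median with MYC was -0.01, 22 of 46 were above 0, against 49.6% of all tested genes, and at an unadjusted p 2 were higher and 5 lower, against 6.5% and 7.1%. Both IKE values lay above both DMSO values for 8 members and below them for 14, against 23% and 23.9% of all tested genes.

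For MYC, CFPAC-1 libraries had 53.0 and 52.2 FPKM with IKE, against 39.8 and 33.7 FPKM with DMSO. The treated libraries were close to each other and above both controls (0.51 on the log2 scale, SE 0.09, adjusted p = 0.0206, limma), with a 1.43-fold higher mean. This call, too, depended on single libraries, and was lost without DMSO replicate 2 (adjusted p = 0.168), IKE replicate 1 (0.139) or IKE replicate 2 (0.132), each of which leaves an arm with 1 library, and in a fit of CFPAC-1 alone (0.136). Its rank among the members by mean level was 5th with IKE and 7th with DMSO in CFPAC-1, and 30th and 34th in PANC-1.

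NOP2 had the lowest p of the members that were lower in CFPAC-1. It lay at 4.13 and 4.96 FPKM with IKE, against 5.79 and 7.82 FPKM with DMSO, without overlap but with DMSO libraries that differed from each other more than the treated ones did (-0.48, SE 0.12, adjusted p = 0.0851, limma). It was called with quantile normalization (adjusted p = 0.0495, limma) and in no other fit that kept 2 or more libraries in each group. With 1 library left out, its fold change ran from -0.67, without CFPAC-1 DMSO replicate 1, to -0.30. The same exons belong in part to AC006064.6, which runs on the same strand, so reads of the 2 genes could not be told apart. WDR75 (-0.49, adjusted p = 0.342) had 13.9 and 13.3 FPKM with IKE against 15.5 and 24.2 FPKM with DMSO, a wide control spread. UTP4 (-0.23), BRIX1 (-0.24) and EBNA1BP2 (-0.20) were the other members lower at an unadjusted p, and PPAN (0.30) was the other member higher, with adjusted p-values of 0.161 to 0.328.

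**Figure D4:**
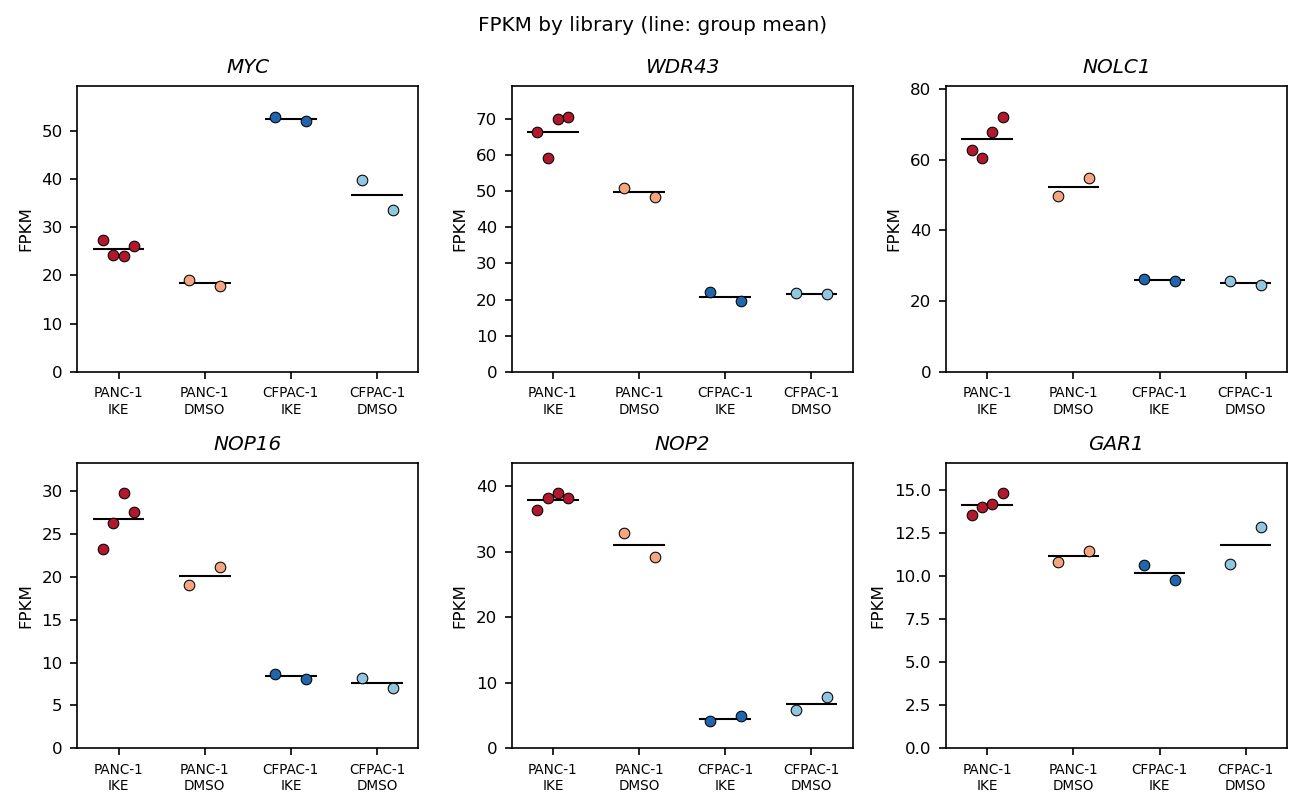
FPKM in each library for MYC, WDR43, NOLC1, NOP16, NOP2 and GAR1, with PANC-1 IKE, PANC-1 DMSO, CFPAC-1 IKE and CFPAC-1 DMSO from left to right, points for libraries and a line for the group mean. MYC is above its control in both lines and lower in PANC-1 than in CFPAC-1.

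Whether the response differed between the lines was tested directly, as the IKE effect in PANC-1 minus that in CFPAC-1. Of 46 members 0 were called, against 0.336% of all tested genes, and at an unadjusted p 8 were higher in PANC-1 and 0 lower, against 5.83% and 6.52%. The difference was above 0 for 38 members, against 48.6% of all tested genes, with a median of 0.11. This value uses the same libraries as the comparisons within lines, so it adds no separate sample. For MYC the difference was -0.07 (SE 0.12, adjusted p = 0.866, limma), smaller than its standard error.

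NOP2 had the largest difference, 0.77 (SE 0.16, adjusted p = 0.0865, limma), from 36.4, 38.2, 39.0 and 38.2 FPKM with IKE against 32.8 and 29.2 FPKM with DMSO in PANC-1 and the lower values with IKE in CFPAC-1 given above. With 1 library left out, the NOP2 difference ran from 0.58 to 0.96, the latter without CFPAC-1 DMSO replicate 1. It was called in no fit that kept 2 or more libraries in each group. GAR1 and RRP1 ran the same way. GAR1 had 13.6, 14.0, 14.2 and 14.8 FPKM with IKE against 10.8 and 11.5 FPKM with DMSO in PANC-1, and 10.7 and 9.77 FPKM with IKE against 10.7 and 12.9 FPKM with DMSO in CFPAC-1 (difference 0.51, SE 0.13, adjusted p = 0.157). In these 3 genes all treated libraries were above the controls in PANC-1 and below them in CFPAC-1, as in 2.1% of all tested genes. MYC, NAT10, NOLC1, NOP10 and PPAN, 5 of 46, were above their controls in every treated library of both lines, as were 4.15% of all tested genes. For WDR43 the difference was 0.47 (SE 0.12, adjusted p = 0.157), with 22.1 and 19.5 FPKM with IKE and 21.8 and 21.5 FPKM with DMSO in CFPAC-1.

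The wider pathway was read from 82 further assembly factor genes and 11 further genes of RNA polymerase I. In PANC-1 against CFPAC-1 with DMSO, 59 of 82 assembly genes were higher and 10 lower, against 43.4% and 35.2% of all tested genes, with a median of 0.65. FBL, the rRNA 2′-O-methyltransferase fibrillarin, lay at 2842 and 2895 FPKM in PANC-1 against 147 and 142 FPKM in CFPAC-1 (4.30, adjusted p = 1.01e-12, limma), a 19.8-fold higher mean, where its complex partners NOP56 and NOP58 differed by 1.00 and 0.60. NOL6 (1.77) and LTV1 (2.08), both of the small subunit, were higher as well. LTV1 overlaps exons of AL049844.1 and AL049844.3 on the same strand, so its value is uncertain. WDR74 (-3.39), DDX52 (-2.73) and RRP7A (-1.31) were lower. WDR74 had 20.6 and 29.8 FPKM in PANC-1 against 228 and 319 FPKM in CFPAC-1, and its exons overlap those of RNU2-2P on the same strand, so its value is uncertain. Of the RNA polymerase I genes 6 of 11 were higher and 1 lower, against 43.4% and 35.2% of all tested genes, led by POLR1E (2.65), the initiation factor gene RRN3 (1.34) and POLR1G (1.39), with POLR1H lower (-0.75).

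With IKE in PANC-1, 1 of the 82 assembly genes rose and 0 fell, no more than the 1.21% of all tested genes called higher. Values above 0 were found for 68 of 82, against 47.9% of all tested genes, with a median of 0.12. The risen gene was the helicase gene DDX27, with 22.8, 23.4, 25.2 and 24.7 FPKM with IKE against 18.01 and 19.6 FPKM with DMSO (0.34, SE 0.07, adjusted p = 0.0419, limma), whose call was lost in 9 of the 10 fits that left out 1 library (adjusted p up to 0.338). At an unadjusted p, 22 were higher and 2 lower, against 8.37% and 9.25% of all tested genes. In CFPAC-1 with IKE 0 of 82 were called in either direction by limma, 3 higher and 5 lower at an unadjusted p (6.5% and 7.1% of all tested genes), with a median of -0.01. The further RNA polymerase I genes gave 0 calls of 11 in either line, with 3 higher and 0 lower at an unadjusted p in PANC-1 and 2 higher and 1 lower in CFPAC-1.

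Of 10 tested genes of the MYC network of partners and antagonists, 3 were higher and 4 lower in PANC-1, shares near the 43.4% and 35.2% of all tested genes, so the counts say nothing particular about the network. MAX, the partner MYC needs to bind DNA, lay at 12.4 and 11.3 FPKM in PANC-1 against 35.8 and 35.6 FPKM in CFPAC-1 (-1.51, adjusted p = 9.03e-09, limma). The antagonist genes MXD3 (-1.49) and MXI1 (-0.98) and the MAX-like gene MLX (-0.37) were lower too. Higher in PANC-1 were MLXIP (1.26), the antagonist gene MNT (0.58, and 0.31 with an adjusted p of 0.0622 without CFPAC-1 DMSO replicate 1) and MGA (0.23). MGA lost its call with quantile normalization (adjusted p = 0.105), with median-ratio scaling (0.251) and without CFPAC-1 DMSO replicate 1 (0.0591) or 2 (0.0505) or PANC-1 DMSO replicate 1 (0.11), and leaving out 1 library gave 1 to 4 network genes called higher. MXD3 overlaps exons of RAB24 and is uncertain. MYCN and MYCL, the paralogues of MYC, were low, at 0 to 0.05 FPKM and at 0.16 to 1.25 FPKM over all 10 libraries, and were not tested.

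None of the 10 network genes was called with IKE in either line by limma. At an unadjusted p under 0.05, 2 were higher and 2 lower in PANC-1, against 8.37% and 9.25% of all tested genes. In CFPAC-1 2 were higher and 1 lower, against 6.5% and 7.1%. MXI1 had 4.33, 5.86, 5.15 and 6.34 FPKM with IKE against 3.44 and 3.71 FPKM with DMSO in PANC-1 (0.48, adjusted p = 0.0649), and 10.7 and 9.80 FPKM with IKE against 7.94 and 8.09 FPKM with DMSO in CFPAC-1 (0.32, adjusted p = 0.348). MXD3 ran the other way in both, with 1.55, 1.79, 1.65 and 1.70 FPKM with IKE against 2.66 and 2.33 FPKM with DMSO in PANC-1 (-0.39, adjusted p = 0.0726), and 6.97 and 6.21 FPKM with IKE against 9.68 and 8.02 FPKM with DMSO in CFPAC-1 (-0.37, adjusted p = 0.166). Treated and control libraries of MXI1 and MXD3 did not overlap in either line. Of all tested genes 12.3% lay all higher and 13.6% all lower in PANC-1, and 23% and 23.9% in CFPAC-1. Like MXI1, 4.15% lay all higher in both lines. MAX was at 13.5 to 14.1 FPKM with IKE against 12.4 and 11.3 FPKM with DMSO in PANC-1 (0.20, adjusted p = 0.16), while MXD1 at 3.81 to 4.95 FPKM with IKE against 3.95 and 3.80 FPKM with DMSO, and MXD4 at 4.26 to 5.77 FPKM against 5.04 and 5.97 FPKM, overlapped there. MNT had 4.95 and 5.71 FPKM with IKE against 2.93 and 4.74 FPKM with DMSO in CFPAC-1 (0.41, adjusted p = 0.27), and overlapped in PANC-1.

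**Figure D5:**
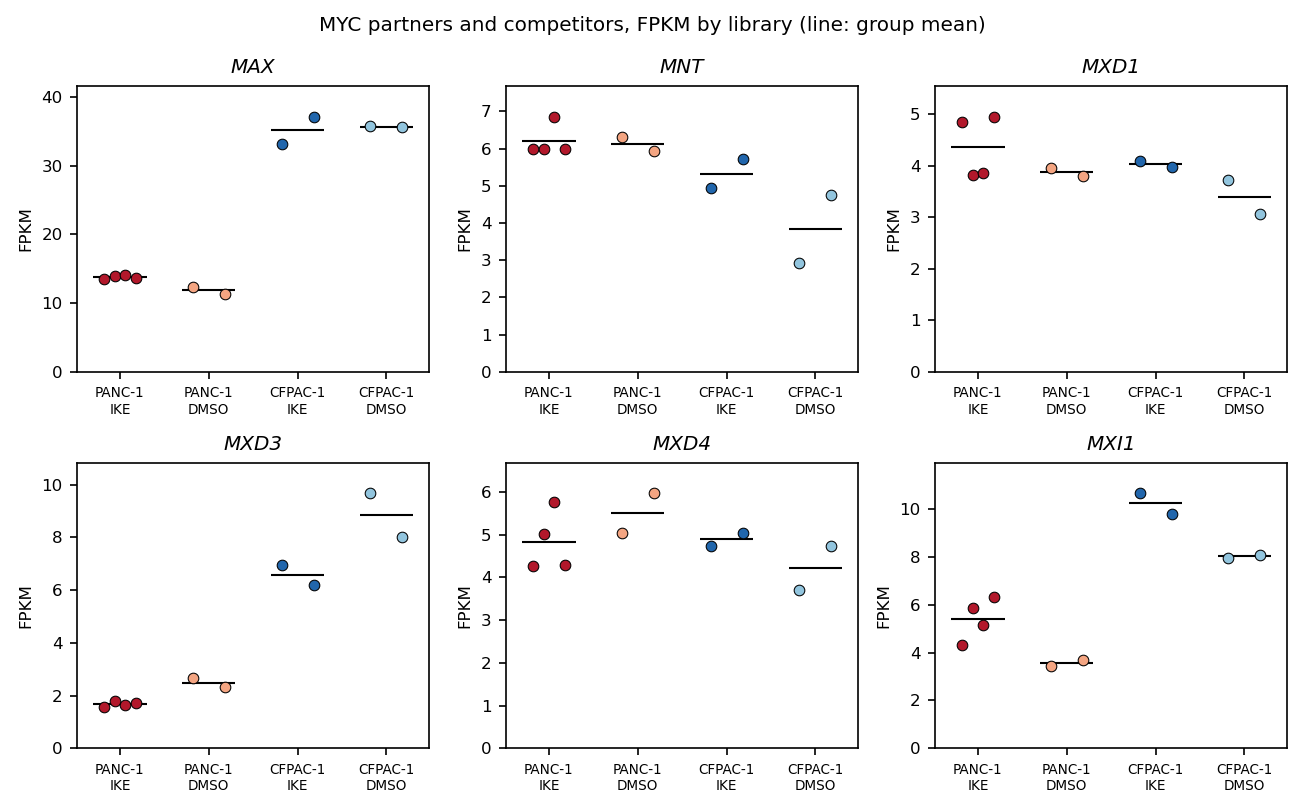
FPKM in each library for MAX, MNT, MXD1, MXD3, MXD4 and MXI1, with PANC-1 IKE, PANC-1 DMSO, CFPAC-1 IKE and CFPAC-1 DMSO from left to right, points for libraries and a line for the group mean. MAX, MXD3 and MXI1 are lower in PANC-1 than in CFPAC-1, and MXI1 and MXD3 separate treated from control libraries in both lines in opposite directions. Of all tested genes 4.15% are, like MXI1, all higher in both lines.

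Known MYC targets outside ribosome synthesis showed the line order of the module and not that of MYC. Of 23 tested, 20 were higher in PANC-1 and 1 was lower, against 43.4% and 35.2% of all tested genes. The polyamine genes SRM (2.72) and ODC1 (1.93) and the mitochondrial protein gene C1QBP (1.84) were highest by p, and the DNA repair gene APEX1 was lower (-0.64). In PANC-1 with IKE, ODC1, the first enzyme of polyamine synthesis, rose (122, 121, 115 and 124 FPKM with IKE against 96.5 and 96.5 FPKM with DMSO; 0.32, adjusted p = 0.0171, limma) and LDHA, the lactate dehydrogenase gene, fell (614, 621, 582.3 and 632 FPKM with IKE against 807 and 733 FPKM with DMSO; -0.33, adjusted p = 0.0189). In CFPAC-1 with IKE 1 of 23 fell, the nucleoside diphosphate kinase gene NME1, and 0 rose. NME1 lay at 92.5 and 91.2 FPKM with IKE against 112 and 114 FPKM with DMSO (-0.30, adjusted p = 0.0382, limma). It shares exons with the readthrough gene NME1-NME2, so its value is uncertain. Of all tested genes 1.21% were called higher and 1.17% lower with IKE in PANC-1, and 0.864% and 0.459% in CFPAC-1. Calls of 1 gene in 23 are too few to set apart from these shares. At an unadjusted p under 0.05 (limma), 5 were higher and 1 lower in PANC-1, against 8.37% and 9.25% of all tested genes. In CFPAC-1 0 were higher and 2 lower, against 6.5% and 7.1%. Values above 0 were found for 16 of 23 in PANC-1, against 47.9% of all tested genes. In CFPAC-1 they were found for 11, against 49.6%. The 3 calls with IKE did not hold throughout: without PANC-1 DMSO replicates 1 or 2 those of ODC1 and LDHA were lost (adjusted p up to 0.168 and 0.229), and that of NME1 was lost in 9 of 10 fits without 1 library (adjusted p up to 0.219). In a fit of the compared groups only, all 3 were lost (ODC1 0.0661, LDHA 0.121, NME1 0.088), and LDHA (0.062) and NME1 (0.0556) also with PANC-1 IKE replicates 1 and 2 only.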

How the data were processed

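Total RNA of 10 libraries was measured. Per the labels' protocols, rRNA was removed, cDNA was primed at random and the second strand was digested, which keeps the strand. Per the submitters' processing notes the build was GRCh38 and the tools were StringTie 1.3.4, HISAT2 2.1.0, fastp 0.18.0, DESeq2 and Bowtie2 2.2.8. The sources used here do not give their roles or any use of strand in counting. The authors deposited FPKM values rounded to 2 decimals for 20289 genes. Another 9 columns hold nothing and were left out. Counts were not used here, so the depth and counting error are unknown. Values are therefore uncertain for 17 members whose exons overlap an antisense gene and for 4 that overlap one on the same strand (HEATR1, NOP2, PPAN and RRS1). Named pseudogenes exist for 9 members, 45 of them for NPM1, and reads could be split among such copies.

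Values were log2-transformed after adding 1, and 13077 genes passed a filter of 1 FPKM or more in 2 libraries or more. A model of the 4 group means over the 10 libraries was fitted in limma 3.58.1 (R 4.3.3) with a variance trend, leaving 6 residual and adding 5.1 prior degrees of freedom. Its two-sided p-values were adjusted by Benjamini-Hochberg over all tested genes. The fit was tested on simulated data. Gene positions are from GENCODE 29 and promoters from RefSeq (GRCh38.p14). The members and lists were chosen with earlier results of these data known. Genes given in full are MYC and, per comparison and list, the 3 called genes with the smallest p per direction, beside the MAX, MXD and MNT family, and other members are named for their place in a role group.

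The labels do not state whether replicate numbers pair the libraries. Deviations of IKE and DMSO libraries with the same number correlated at -0.00145 in CFPAC-1 and at 0.118 and 0.0266 in PANC-1, over 13077 genes. With so few libraries these values can neither establish nor exclude a pairing. Alternatives were quantile normalization, median-ratio scaling, no filter, at least 5 FPKM, a pseudocount of 0.1, a replicate block, a fit of the compared groups, PANC-1 IKE replicates 1 and 2 or 3 and 4 alone, and each library left out.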

Additional observations from a re-analysis of the deposited data

Results flagged for a closer look

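Among 76 genes, 6 had 1 PANC-1 IKE library of 4 far from the other 3 by Dixon's test, which flags about 1 in 20 groups by chance. The members among them were NHP2, at 83.4 FPKM in replicate 2 against 68.1 to 70.3 FPKM in the others, and NAT10, at 31.6 FPKM in replicate 2 against 29.3 to 29.5 FPKM. FBL lay at 3497 FPKM in replicate 2 against 3107 to 3147 FPKM, and MYCL at 1.25 FPKM in that library against 0.23 to 0.28 FPKM. In replicate 3, MNT lay at 6.86 FPKM against 5.99 to 6 FPKM, and POLR1E at 59.6 FPKM against 64.7 to 65.7 FPKM.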

How the results depend on the processing

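No member, MYC network gene or other list gene named for its small p changed direction while called. The remaining listed genes were not followed one by one. Counts of called members in the line comparison kept to 37 to 41 higher and 2 lower in every fit run. The calls with IKE were few and near the threshold. In CFPAC-1, 1 member was called higher, against 0 in a fit of the compared groups only, and 0 lower, against 1 with quantile normalization. Leaving out 1 library gave 0 to 1 higher and 0 to 1 lower. In PANC-1, 2 members were called higher, against 1 with no filter, 1 with the replicate block, 3 with a filter of at least 5 FPKM, 0 in a fit of the compared groups only, 0 with IKE replicates 1 and 2 only, 4 with IKE replicates 3 and 4 only, and 0 to 3 with 1 library left out. The difference between lines gave 0, and 0 to 1 with 1 library left out. Fits that leave out a DMSO library, or a CFPAC-1 library, have 1 library in that arm, which is assumed to vary like the other groups. For the other shifts the cause was not tested. Whether replicate numbers pair the libraries is unknown, so the calls under the replicate block matter too, and they are given in this section only. Replicates 3 and 4 exist only for PANC-1 with IKE, so under the block the PANC-1 fold changes rest on replicates 1 and 2. For WDR43 the fold change was 0.33 both under the block and with IKE replicates 1 and 2 only. Calls lost there under the block therefore cannot tell a pairing from the use of fewer treated libraries. Under the block WDR43 (adjusted p = 0.0728, limma), ODC1 (0.0609), LDHA (0.063) and DDX27 (0.156) in PANC-1 and NME1 (0.0642) in CFPAC-1 lost their calls. Counts over all genes varied more. With PANC-1 IKE replicates 1 and 2 only, 170 genes were called with IKE in PANC-1, and with replicates 3 and 4 only 469. In PANC-1 with IKE, 311 genes were called, against 149 with the block, 32 in a fit of PANC-1 alone and 42 (without PANC-1 DMSO replicate 1) to 503 (without PANC-1 IKE replicate 2) with 1 library left out. In CFPAC-1 with IKE, 173 were called, against 262 with quantile normalization, 57 in a fit of CFPAC-1 alone and 85 to 255 with 1 library left out. The shares of all tested genes called, given beside the members' counts, move with these totals. FPKM carry no depth, so differences of low members such as WDR12, LYAR and RRS1 have an unknown counting error.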
